A study of Mus musculus with 9 samples.

Results

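The F-box protein family was described by its transcripts in mouse oocytes. Its members were the gene symbols that start with Fbxo, Fbxw or Fbxl followed by a digit, with 1 symbol left out by the same rule. This gave 77 of 24736 genes, made up of 36 Fbxo, 22 Fbxw and 19 Fbxl genes. The rule used names and no measured value. Of the 77 genes, 76 were annotated as protein-coding, and Fbxl12os was a transcribed pseudogene on the strand opposite to Fbxl12.

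Oocytes arrested at the second meiotic metaphase came from female ICR mice, an outbred strain, aged 4 to 5 weeks per the labels. The KYZY group had 6 weeks of daily stressors and then 4 weeks of a herbal decoction, 0.1 ml per day into the stomach. The stress group had the same stressors in a chronic unpredictable mild stress model, and the control group had no stress. Each group had 3 libraries, each of 15 oocytes from 1 mouse, and all mice were superovulated with PMSG and hCG (7.5 IU of each), with collection from the oviduct 16 hours after hCG. The labels name no group given a vehicle in place of the decoction. They also describe the sequencing of the KYZY libraries in other words than that of the stress and control libraries, without naming a run. The recipe, the gavage, the added weeks and any difference in sequencing therefore cannot be told apart.

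An F-box protein is the part of an SCF ubiquitin ligase that chooses the target. Its F-box binds the adaptor Skp1, which joins it to the scaffold Cul1 and the RING protein Rbx1, and the rest of the protein holds the substrate so that it receives ubiquitin. The family is named by what that second part is: WD repeats in Fbxw, leucine-rich repeats in Fbxl, and other or no known domains in Fbxo. In oocytes, timed destruction of proteins through SCF ligases and the anaphase-promoting complex governs entry into and exit from the meiotic divisions. The mouse also carries a tandem group of Fbxw genes that is known for transcripts found largely in oocytes.

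That tandem group stood out by position and sequence. Its 13 Fbxw genes (Fbxw21, Fbxw13, Fbxw20, Fbxw14, Fbxw28, Fbxw22, Fbxw16, Fbxw19, Fbxw15, Fbxw24, Fbxw18, Fbxw26 and Fbxw27, in that order) lie on chromosome 9 from 109139454 to 109790660 (GRCm38). They span 651 kb, are all on the minus strand, and enclose 0 other genes of the table. Fbxw25, another gene named in the list, was not analysed here. In GENCODE M21 the coding sequences of the 78 pairs were 79.5% to 99.1% identical, with a median of 83.95%. Against Fbxw17, a family member on chromosome 13, their identity was 57.0% to 60.2%. The closest pair was Fbxw28 and Fbxw14, neighbours that differed at 13 of 1398 coding bases. Coding bases 833 to 922 of that pair, counted from the A of the start codon, are shown because they carry 4 of the 13 differences, given in capitals.

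Fbxw28: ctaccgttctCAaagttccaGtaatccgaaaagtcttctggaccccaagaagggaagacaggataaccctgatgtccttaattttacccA
Fbxw14: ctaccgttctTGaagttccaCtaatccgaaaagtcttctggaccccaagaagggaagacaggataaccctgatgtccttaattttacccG

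The start of the coding sequence, which holds the beginning of the F-box, is shown for 4 genes at different expression levels. Capitals mark the bases that differ from Fbxw28.

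Fbxw28: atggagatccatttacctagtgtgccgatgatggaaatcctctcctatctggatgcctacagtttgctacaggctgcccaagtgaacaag
Fbxw22: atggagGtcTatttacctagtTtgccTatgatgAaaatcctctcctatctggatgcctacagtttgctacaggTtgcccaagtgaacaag
Fbxw16: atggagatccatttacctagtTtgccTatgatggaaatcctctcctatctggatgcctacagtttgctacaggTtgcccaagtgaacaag
Fbxw24: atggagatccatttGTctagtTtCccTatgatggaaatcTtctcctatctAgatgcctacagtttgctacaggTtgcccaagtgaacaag

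The 90 bases of Fbxw16 differed from those of Fbxw28 at 3 positions, those of Fbxw22 at 6 and those of Fbxw24 at 8. Fbxw14 had 0 differences there. Fbxw18 had 52, counted position by position without gaps, and the remaining cluster genes had 4 to 8.

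The promoters were alike too. RefSeq (GRCm38.p6) gave a promoter for 10 of the 13 cluster genes, with none used for Fbxw13, Fbxw22 and Fbxw27. In the 250 bases before the start, the 45 pairs were 84.7% to 97.3% identical, with a median of 91.0%. The last 120 bases before the start are printed for 5 genes on the minus strand, with capitals for TTTAAA and CAGCTG.

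Fbxw28 (chr9:109339660-109339779): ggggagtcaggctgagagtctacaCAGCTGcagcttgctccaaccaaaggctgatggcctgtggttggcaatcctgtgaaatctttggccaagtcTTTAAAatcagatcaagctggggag
Fbxw14 (chr9:109287677-109287796): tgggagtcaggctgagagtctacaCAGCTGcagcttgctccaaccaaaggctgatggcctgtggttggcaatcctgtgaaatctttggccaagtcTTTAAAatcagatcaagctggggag
Fbxw24 (chr9:109626060-109626179): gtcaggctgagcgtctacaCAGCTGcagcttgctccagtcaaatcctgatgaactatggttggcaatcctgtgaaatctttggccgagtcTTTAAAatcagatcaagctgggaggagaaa
Fbxw16 (chr9:109449141-109449260): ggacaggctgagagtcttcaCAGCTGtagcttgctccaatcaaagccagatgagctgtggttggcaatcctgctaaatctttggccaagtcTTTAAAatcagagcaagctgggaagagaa
Fbxw20 (chr9:109234755-109234874): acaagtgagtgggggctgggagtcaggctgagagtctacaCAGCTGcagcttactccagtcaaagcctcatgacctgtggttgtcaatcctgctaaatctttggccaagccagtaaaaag

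The letters TTTAAA occurred in 9 of the 10 cluster promoters, against 7 of 47 other family promoters and 12.1% of all 32817 promoters of that length. Fbxw20 was the exception. In Fbxw28 and Fbxw14 TTTAAA lay 25 bases before the start used, and in Fbxw24 it lay 30 bases before it. Over the 9 promoters this distance ran from 10 (Fbxw18) to 54 bases (Fbxw19). In Fbxw14 and Fbxw19 the start used lies inside the gene as annotated, so the distances depend on uncertain starts. CAGCTG occurred in 10 of 10 cluster promoters, against 9 of 47 other family promoters and 13.0% of all promoters. It is 1 form of the more general CANNTG (E-box), which 10 of 10 cluster promoters, 33 of 47 other family promoters and 66.2% of all promoters held. TATAAA was in 0 of 10 cluster promoters, 0 of 47 other family promoters and 12.4% of all promoters. Its absence thus did not set the cluster apart from the other family promoters. TAATTG was in 0 of 10, 2 of 47 and 7.2%, and CCAAT was in 1 of 10, 11 of 47 and 33.8%. Both strands were searched, and a match is only a match of letters. The cluster promoters were nearly alike in sequence, so they are not 10 independent observations, whether a motif was present or absent.

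Total counts per library ran from 46324094 (KYZY 3) to 106990821 (stress 2), and 13257 to 15802 genes had a value above 0. All 14 oocyte marker genes on the list were above 0 in every library. Their summed level was 29497 to 42608 CPM in KYZY libraries, 33263 to 37264 CPM in stress libraries and 33062 to 36722 CPM in control libraries (CPM relative to the library total). Markers of cumulus and granulosa cells, which surround the egg, differed widely between libraries. Of 22 listed, 13 to 21 were above 0 in KYZY libraries, 9 to 20 in stress libraries and 8 to 21 in control libraries. Their summed level was 32.2, 378 and 730.2 CPM in KYZY 1, 2 and 3, against 21.8, 37.3 and 65.3 CPM in stress 1, 2 and 3 and 20.8, 51.7 and 394 CPM in control 1, 2 and 3. The listed markers Ptx3, Tnfaip6 and Sfrp2 were at 0 in KYZY 1, stress 1, stress 2, control 1 and control 2. Other markers of the list were above 0 in these libraries. Cyp11a1 had 0.421 to 11.4 CPM there, and Vcan had 0.131 and 0.195 CPM in control 1 and control 2. By mean log2 level the 4 highest libraries were KYZY 3, KYZY 2, control 3 and stress 3. Some of these also held markers of other cells. KYZY 3 and control 3 were highest for stroma and endothelium (mean log2 level 2.46 and 2.19) and for oviduct epithelium (2.74 and 2.42). Stress 3 was at 0.71 and 1.23 for these lists. KYZY 2 had 58.3 CPM of the immune marker Lyz2. Cumulus RNA and RNA of these other cells were not tested apart.

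Most of the family was detected. Levels below are CPM, counts scaled to a common library size after TMM (trimmed mean of M values) adjustment, and values of single libraries are in the order 1, 2, 3. Of the 77 members, 64 were above 0 in all 9 libraries, and Fbxo2, an F-box gene known from neurons for binding glycoproteins, and Fbxl12os were at 0 in all 9. A value of 0 allows up to 12 counts, which is 0.105 to 0.245 CPM per library and covers counting error only. By mean CPM over the libraries, 22 members were at 100 or more, 18 between 10 and 100, 17 between 1 and 10, and 20 under 1. The 22 most abundant held 12 of the 13 cluster genes. A filter on low counts kept 68 members for testing. Besides the 2 at 0, it dropped Fbxl16, Fbxo16, Fbxo24, Fbxo41, Fbxo44, Fbxo48 and Fbxw10, whose highest library value was 9 to 37 counts.

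Levels of different genes were compared per kilobase of the longest protein-coding transcript. The 12 highest members on that scale were all cluster genes. Without division by length 11 of the 12 were, and Fbxo30 entered. Fbxw28 averaged 2931 CPM per kb over the 9 libraries and ranked 15 among the 13890 genes tested. Fbxw14 averaged 2615 CPM per kb, rank 23, and Fbxw24 averaged 2137 CPM per kb, rank 30. Fbxw22 and Fbxw19 followed at 1291 and 1257 CPM per kb. The next 7 cluster genes, Fbxw16, Fbxw20, Fbxw26, Fbxw15, Fbxw18, Fbxw27 and Fbxw21, lay between 284 and 555 CPM per kb. Fbxw13 was the lowest of the cluster at 40.2 CPM per kb. The highest member outside the cluster was Fbxo5 at 205 CPM per kb, rank 295. After it came Fbxo30 at 98.5, Fbxo8 at 84.7, Fbxl6 at 66.9, Fbxo34 at 61.6 and Fbxw4 at 46.7 CPM per kb. Between libraries, single genes ranged widely enough that neighbours in this order overlapped: Fbxw28 spanned 1522 to 5487 CPM per kb and Fbxw14 spanned 1346 to 5047 CPM per kb.

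**Figure D1:**
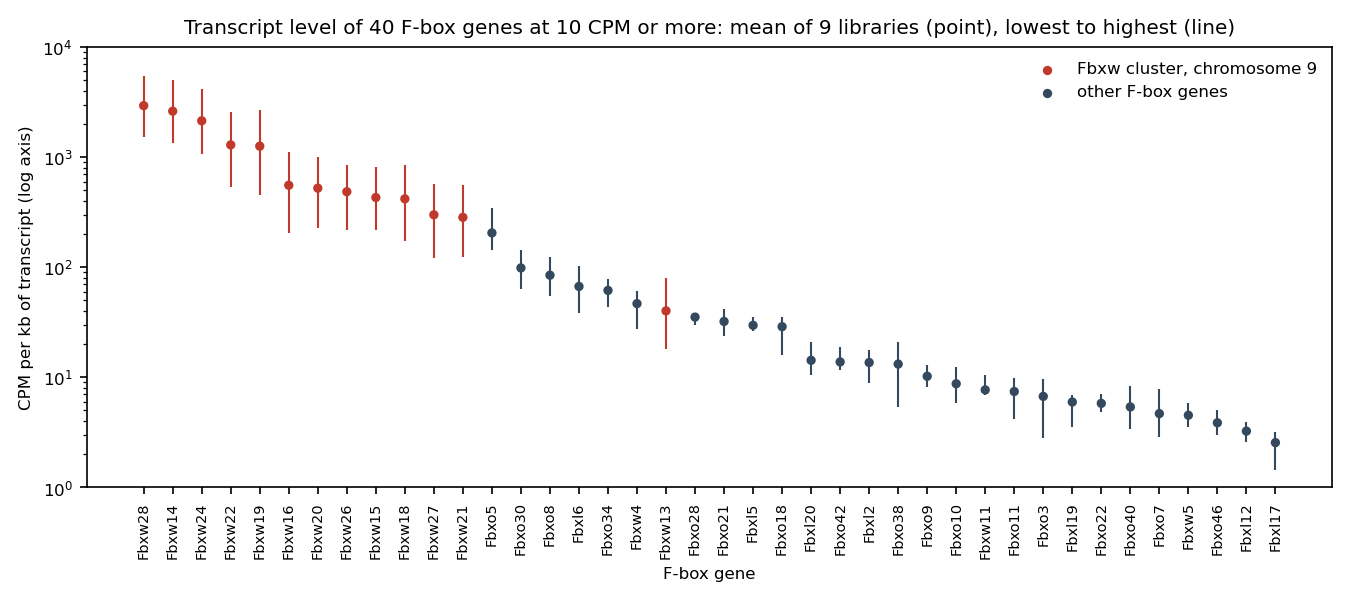
Level of the 40 F-box family members that averaged at least 10 CPM, in CPM per kilobase (log axis), with a point for the mean of 9 libraries and a line from the lowest to the highest library. The 12 highest members are cluster genes, led by Fbxw28 at 2931 CPM per kb.

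The genes on either side of the cluster were lower per kilobase than every cluster gene. Before it lie Tma7 (5.68 to 11.1 CPM per kb over the libraries), Ccdc51 (0 to 0.273) and Plxnb1 (1.62 to 2.77), and after it lie Spink8 (0 in all 9 libraries), 3000002C10Rik (0.0817 to 0.246) and Nme6 (0.679 to 2.06). The lowest cluster gene, Fbxw13, had 18.2 to 79.6 CPM per kb.

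The cluster genes went up and down together from library to library. Summed over the 13 genes, the level was 28870, 17939 and 16453 CPM in KYZY libraries, 17140, 14065 and 42407 CPM in stress libraries, and 32084, 10326 and 18031 CPM in control libraries. In each group 1 library was far above the other two, namely KYZY 1, stress 3 and control 1, and the groups overlapped fully. Group sums were 21087 ± 6781 CPM in KYZY, 24538 ± 15552 CPM in stress and 20147 ± 11033 CPM in control (SD, n = 3 each). The highest library was 4.11 times the lowest by CPM and 2.58 times by plain share of counts. As that share, the cluster took 2.46%, 1.80% and 1.74% of counts in KYZY libraries, 1.85%, 1.51% and 3.39% in stress libraries, and 2.82%, 1.31% and 1.92% in control libraries. The KYZY mean was above the control mean by CPM and just below it by share (2.00% against 2.02%).

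Single genes showed the same order of libraries. Fbxw28 stood at 6215, 4204 and 3810 CPM in KYZY libraries, 4027, 3314 and 9208 CPM in stress libraries, and 6813, 2553 and 4126 CPM in control libraries. Fbxw19 stood at 2636, 1452 and 1260 CPM in KYZY libraries, 1345, 1089 and 3937 CPM in stress libraries, and 3024, 671 and 1367 CPM in control libraries. Even Fbxw13, the lowest, had 64.9, 52.6 and 39.8 CPM in KYZY libraries, 42.2, 35.9 and 110.3 CPM in stress libraries, and 118, 27.0 and 45.8 CPM in control libraries. KYZY 1, stress 3 and control 1 were the 3 highest libraries for 13 of 13 cluster genes. They were so for 1 of the other 64 members, Fbxo21. How many of all genes share these 3 highest libraries was not counted, so the order is not shown to be particular to the cluster. Of the partner genes described below, Ube2d3 (2677, 2923 and 2386 CPM in KYZY 1, stress 3 and control 1) and Cks1b (926, 1019 and 870 CPM) had the same 3. Skp1a did not, with 1898 CPM in stress 2 and 913 CPM in stress 3. The highest library was 3.61 to 5.87 times the lowest for cluster genes (median 4.39). For the 27 other members that averaged at least 10 CPM it was 1.29 to 3.89 times (median 2.00).

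**Figure D2:**
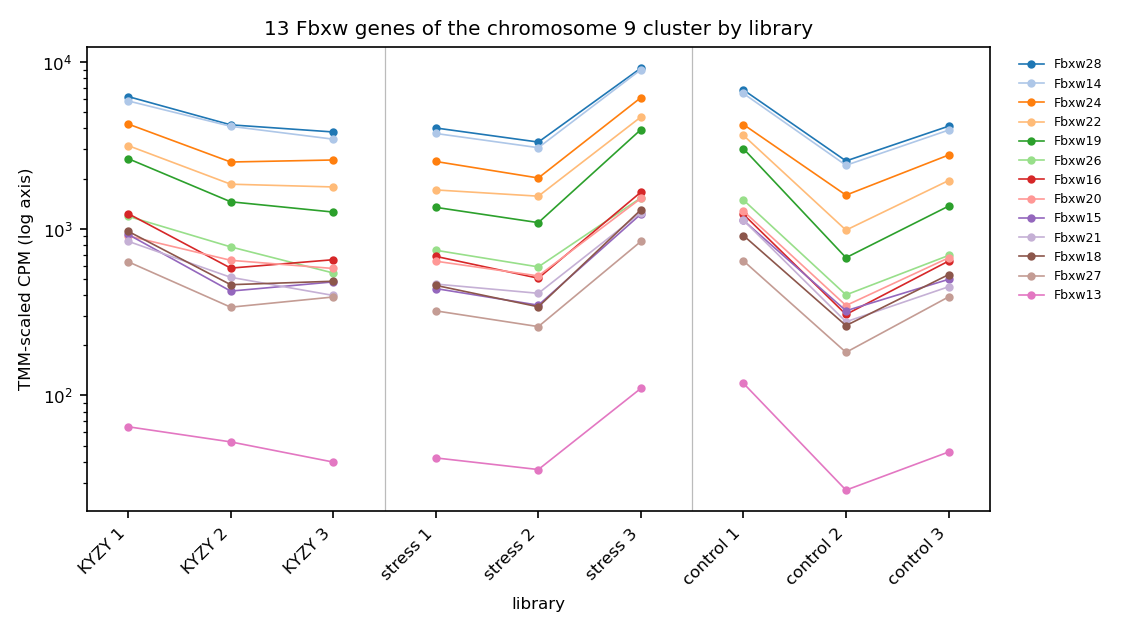
CPM (log axis) of the 13 cluster genes in each library, KYZY left of stress and stress left of control. Lines join the points of 1 gene and imply no order of replicates; all 13 lines peak in KYZY 1, stress 3 and control 1.

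The scaling factors moved with the cluster, and their part in it was not tested. The TMM factors of KYZY 1, stress 3 and control 1 were 0.853, 0.799 and 0.879, and those of the other 6 libraries were 1.003 to 1.273. A factor below 1 enlarges CPM, which is why the share of counts is given as well. The summed cumulus and granulosa markers were 32.2, 65.3 and 20.8 CPM in KYZY 1, stress 3 and control 1, against 21.8 to 730.2 CPM in the other 6. The highest sums, 378 to 730.2 CPM, were in KYZY 2, control 3 and KYZY 3. In control 1 most of the sum came from Cyp19a1 and Nr5a2, at 9.71 and 9.74 CPM. The part of such RNA in the cluster's levels was not tested. The members outside the cluster summed to 2386 to 3448 CPM over the 9 libraries, a ratio of 1.44 from highest to lowest, and as a share of counts they were lowest in KYZY 1 (0.249%) and highest in control 2 (0.352%). In pooled oocytes, fewer cells that carry a transcript and less of it per cell cannot be told apart.

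The make-up of the cluster varied less than its total. The share of a gene differed by 1.15 (Fbxw14) to 1.64 times (Fbxw13) between the highest and the lowest library, against 2.58 times for the share of counts of the whole cluster. Fbxw28 was 21.2% to 24.7% of the cluster's counts over the 9 libraries, Fbxw14 20.2% to 23.3%, Fbxw24 13.2% to 15.7%, Fbxw22 9.51% to 11.3% and Fbxw19 6.50% to 9.43%. Fbxw13 was 0.225% to 0.369%. The Fbxw19 share went with the total: it was 9.13%, 9.28% and 9.43% in KYZY 1, stress 3 and control 1, and 6.50% to 8.10% in the other 6 libraries. The ratio of Fbxw28 to Fbxw14 was 1.02 to 1.10. Group means of the Fbxw28 share were 22.7% ± 1.03 in KYZY, 22.9% ± 1.05 in stress and 22.9% ± 1.75 in control (SD, n = 3 each). The cluster supplied 78.9% to 92.5% of all counts of the family.

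**Figure D3:**
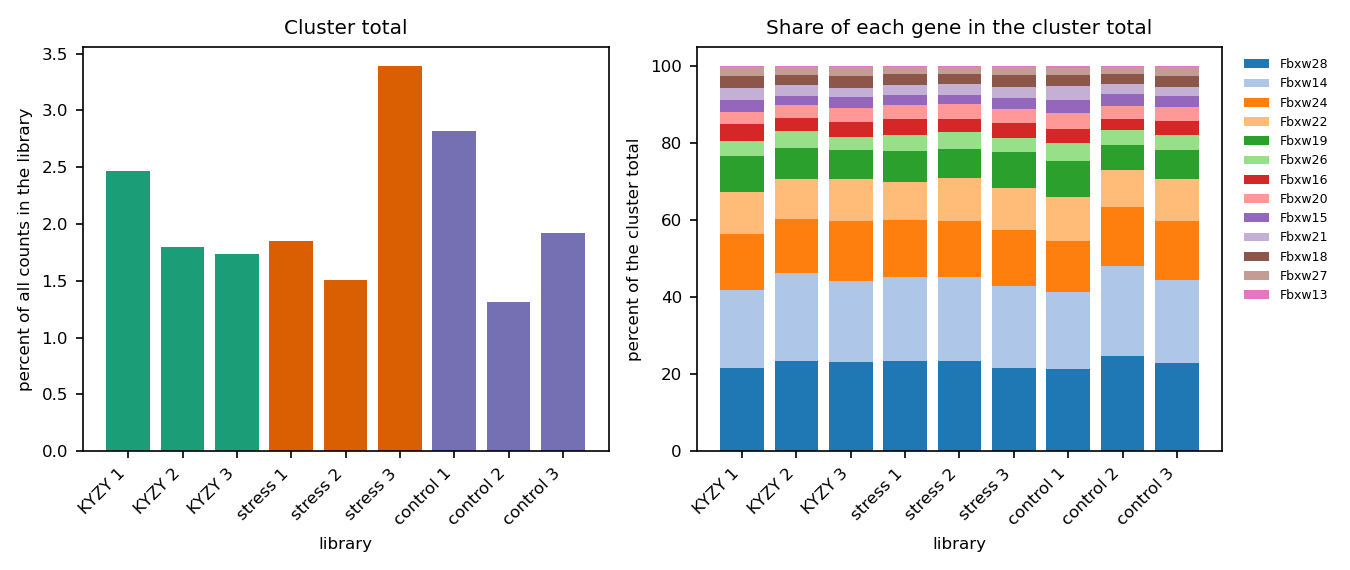
Left, share of all counts of a library (percent) taken by the cluster; right, share of the cluster's counts (percent) taken by each of its genes, as stacked bars; 1 bar is 1 library, KYZY left of stress and stress left of control. The cluster total is highest in stress 3, at 3.39%. Fbxw28 (21.2% to 24.7%) and Fbxw14 (20.2% to 23.3%) hold the largest shares of every bar, and the Fbxw19 share is highest in the 3 libraries where the total is highest.

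Reads that match both genes limit the values of Fbxw28 and Fbxw14. Of the 100-base windows of the Fbxw28 transcript, 46.2% also occurred letter for letter in another cluster gene, as did 44.8% for Fbxw14. For the other 11 genes the share was 0.0% to 3.7%. How the counting divided such reads is not given in the sources used here, so the split between these neighbours is uncertain and their sum is firmer than either value.

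Outside the cluster, Fbxo5 was the member of highest level per kilobase. Fbxo5 (Emi1), an inhibitor of the anaphase-promoting complex, had 375, 502 and 330.0 CPM in KYZY libraries, 330.0, 277 and 672 CPM in stress libraries, and 464, 291 and 337 CPM in control libraries. Its groups overlapped, and stress 3 was the highest. Fbxo30 had 502, 545 and 319 CPM in KYZY libraries, 518, 458 and 605 CPM in stress libraries, and 721, 491 and 327 CPM in control libraries. Fbxw7, which targets cyclin E and Myc, was low, at 2.48, 3.27 and 2.55 CPM in KYZY libraries, 2.59, 2.91 and 3.90 CPM in stress libraries, and 2.56, 2.58 and 2.50 CPM in control libraries. Fbxw11, a beta-TrCP protein that acts on phosphorylated beta-catenin and IκB, had 27.6 to 42.4 CPM over the 9 libraries. Fbxo11, which targets Bcl6 in B cells, had 16.8 to 39.7 CPM. Fbxo4 was close to the limit of detection, at 0.0632, 0.705 and 0.531 CPM in KYZY libraries, 0, 0.297 and 0.326 CPM in stress libraries, and 0, 0 and 0.286 CPM in control libraries.

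Members with other known tasks were also spread over a wide range. Fbxl5, an iron sensor that controls the iron regulatory protein Ireb2, was among the steadiest, at 111 to 150.3 CPM over the libraries. Fbxo28 was the steadiest of those above 10 CPM, with a ratio of 1.29 between the highest and the lowest library. Fbxl2 had 30.9 to 61.1 CPM. Fbxo7, a gene mutated in a form of human parkinsonism, had 24.5, 20.7 and 16.9 CPM in KYZY libraries, 21.5, 26.6 and 25.9 CPM in stress libraries, and 42.6, 33.3 and 15.3 CPM in control libraries. The control values of Fbxo7 spanned those of both other groups.

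In stress against control oocytes, 0 of 68 members passed the test at an adjusted p of 0.05, where 0.0% of the 13890 genes did. The test was edgeR's quasi-likelihood F test with Benjamini-Hochberg adjustment over all genes. At an unadjusted p under 0.05, 373 genes (2.69%) were counted, 2 of them members, Fbxl4 and Fbxo38. DESeq2 called 22 genes and 0 members. Of the members tested, 36 had a higher and 32 a lower fitted level in stress, with a median log2 fold change of 0.03 and a range of -1.17 to 1.11. Over all genes, 6392 had a higher and 7498 a lower fitted level, with a median of -0.03. Groups did not overlap for 5 of the 68 members, against 7.88% of genes, which is a similar share. Higher in stress were 2 of these members, Fbxo38 and Fbxw7 (3.51% of genes), and lower in stress were 3, Fbxl4, Fbxw17 and Fbxo39 (4.38% of genes).

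Fbxo38, an F-box protein that targets PD-1 in T cells, had 81.1, 81.8 and 89.99 CPM in stress libraries, against 55.4, 53.1 and 25.8 CPM in control libraries. Every stress library was above every control library. Its log2 fold change in stress against control was 0.91 (SE 0.342), with an unadjusted p of 0.0229 and an adjusted p of 1.00 in edgeR. Fbxl4, a mitochondrial outer membrane protein that restrains mitophagy, had 5.05, 4.50 and 7.08 CPM in stress libraries, against 9.21, 12.4 and 7.17 CPM in control libraries. The nearest libraries of the groups, stress 3 and control 3, were almost level. Its log2 fold change was -0.79 (SE 0.268), with an unadjusted p of 0.0140 and an adjusted p of 1.00 in edgeR. Over the 18 alternatives its adjusted p was 0.0648 to 1.00, and that of Fbxo38 was 0.274 to 1.00.

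Fbxo3 divided the stress group. It had 13.6, 13.4 and 41.8 CPM in stress libraries, against 42.5, 45.3 and 30.2 CPM in control libraries. Stress 1 and 2 were the lowest of all 9 libraries, while stress 3 lay among the controls. Its log2 fold change was -0.78 (SE 0.421), with an adjusted p of 1.00 in edgeR. Without the 4 libraries of highest cumulus marker level, an alternative chosen after the data were seen that leaves 2 residual degrees of freedom, it was -1.69 with an adjusted p of 0.000828. That fit sets stress 1 and 2 against control 1 and 2, and it leaves out the stress library that was high. Over the 18 alternatives the adjusted p ran from 0.000828 to 1.00.

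The remaining members of smallest p in stress against control had log2 fold changes of -0.69 (Fbxw8), -0.51 (Fbxw17) and -0.41 (Fbxo25). Fbxw8, which works with the scaffold Cul7, had 1.61, 2.25 and 1.24 CPM in stress libraries, against 2.55, 3.58 and 2.12 CPM in control libraries. Fbxw17 had 1.83, 2.19 and 1.60 CPM in stress libraries, against 2.89, 2.61 and 2.51 CPM in control libraries, and its groups did not overlap. Fbxo25 had 7.11, 9.60 and 6.30 CPM in stress libraries, against 7.82, 12.6 and 10.1 CPM in control libraries, and its groups overlapped.

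The cluster did not separate stress from control. Its fitted level was higher in stress for 12 of 13 genes, with a median log2 fold change of 0.28, and 0 of the 13 had an unadjusted p under 0.05. The 13 genes follow the same libraries, so they are not 13 independent observations. Without stress 3 the median was -0.42, without control 1 it was 0.81, and under limma voom with library weights it was -0.15. Fbxw28 averaged 5516 ± 3217 CPM in stress and 4497 ± 2154 CPM in control (SD, n = 3 each), a log2 fold change of 0.29 (SE 0.476).

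**Figure D4:**
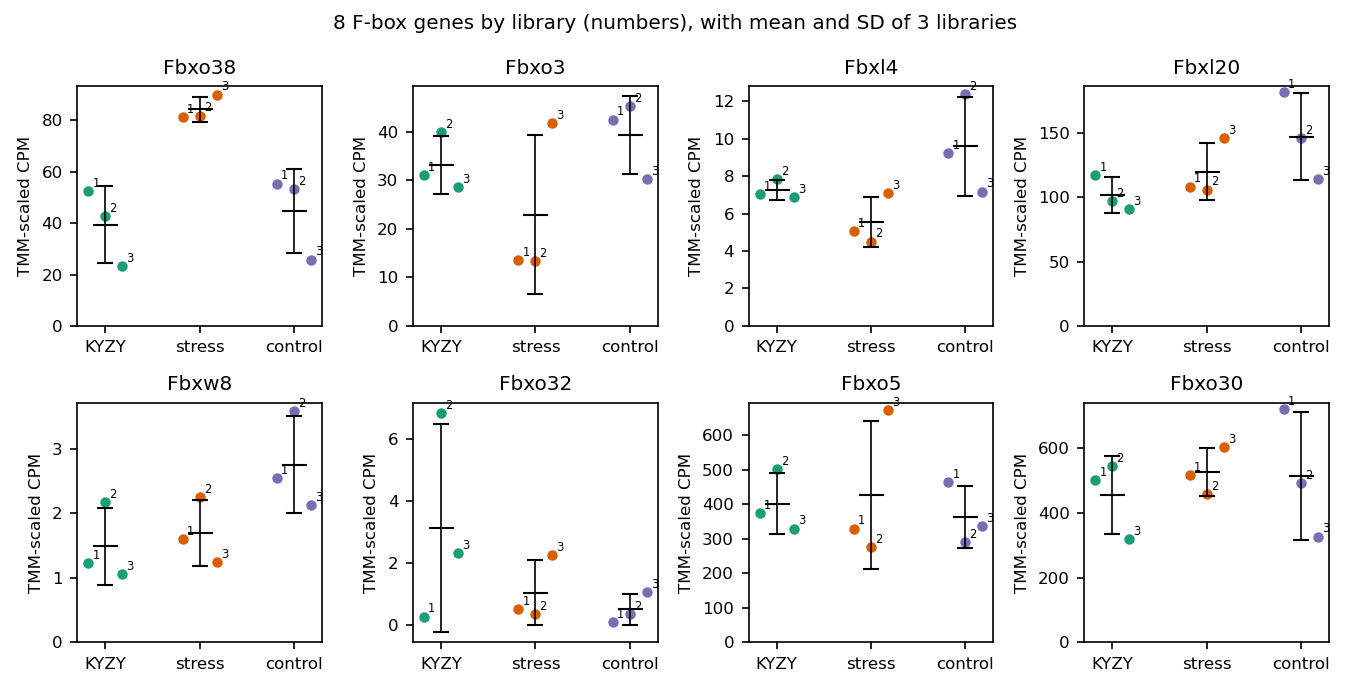
CPM of 8 members (Fbxo38, Fbxo3, Fbxl4, Fbxl20, Fbxw8, Fbxo32, Fbxo5 and Fbxo30) in each library, KYZY left of stress and stress left of control, with the group mean and SD (n = 3). Points carry the library number. Fbxo38 is highest in the stress libraries, at 81.1 to 89.99 CPM, and Fbxo3 is split within the stress group.

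In KYZY against stress oocytes, 0 of 68 members passed at an adjusted p of 0.05, where 0.0% of genes did. At an unadjusted p under 0.05, 553 genes (3.98%) were counted, with 1 member, Fbxo38. DESeq2 called 13 genes and 0 members. Fitted levels were higher in KYZY for 23 members and lower for 45, with a median log2 fold change of -0.11 and a range of -2.58 to 1.99. Over all genes, 7050 had a higher and 6840 a lower fitted level, with a median of 0.01. The groups did not overlap for 1 member, against 9.19% of genes. It was lower in KYZY (5.44% of genes), and 0 members were without overlap and higher (3.76% of genes).

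That member was Fbxo38, with 52.4, 42.6 and 23.1 CPM in KYZY libraries, against 81.1, 81.8 and 89.99 CPM in stress libraries. All KYZY libraries were below all stress libraries, and the KYZY values overlapped the control values. Its log2 fold change in KYZY against stress was -1.10 (SE 0.343), with an unadjusted p of 0.00918 and an adjusted p of 0.935 in edgeR. Over the 17 alternatives the adjusted p was 0.190 to 1.00. The stress libraries serve in both comparisons of Fbxo38, so its 2 differences are not independent. KYZY 3 and control 3, the libraries with the lowest Fbxo38, were 2 of the 4 with the highest cumulus marker level, whose part was not tested. Without the 4 libraries the log2 fold change was -0.62 in KYZY against stress and 0.60 in stress against control.

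The next members by p in KYZY against stress had adjusted p of 0.935 each in edgeR. Fbxo17 had 2.04, 3.29 and 1.82 CPM in KYZY libraries, against 1.91, 1.25 and 0.854 CPM in stress libraries, a log2 fold change of 0.83 (SE 0.434). Fbxo47, known from meiotic prophase in mouse spermatocytes, had 0.884, 0.705 and 1.04 CPM in KYZY libraries, against 1.50, 1.88 and 1.01 CPM in stress libraries. Both genes overlapped between the groups. Log2 fold changes were 0.39 for Fbxl4 and 1.01 for Fbxl15. Fbxl15 lay under 1 CPM in all 9 libraries, at 0.237, 0.925 and 0.877 CPM in KYZY libraries, against 0.294, 0.436 and 0.279 CPM in stress libraries. KYZY 2 and 3 were the high ones, and without the 4 libraries of highest cumulus marker level its log2 fold change was -0.61. In the same fit Fbxo3 had a log2 fold change of 1.22 with an adjusted p of 0.0232, KYZY 1 against stress 1 and 2, where the lone KYZY library is assumed to vary like the others. With all libraries Fbxo3 had 31.1, 39.9 and 28.5 CPM in KYZY libraries, and the groups overlapped.

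All 13 cluster genes had a lower fitted level in KYZY than in stress, with a median log2 fold change of -0.22. The sign of that median changed with single libraries. It was 0.45 without stress 3, -0.55 without KYZY 1 and 0.09 under limma voom with library weights. Without the 4 libraries of highest cumulus marker level it was 0.96. That fit sets KYZY 1 alone, the KYZY library of highest cluster sum, against stress 1 and 2, and it leaves out the high stress 3. None of the 13 had an unadjusted p under 0.05 in edgeR.

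In KYZY against control oocytes, 0 of 68 members passed at an adjusted p of 0.05, where 0.0% of genes did. At an unadjusted p under 0.05, 380 genes (2.74%) were counted, with 1 member, Fbxl20. DESeq2 called 1 gene and 0 members. Fitted levels were higher in KYZY for 27 members and lower for 41, with a median log2 fold change of -0.09 and a range of -2.51 to 2.87. Over all genes, 6902 had a higher and 6988 a lower fitted level, with a median of -0.0032. Groups did not overlap for 3 members, against 7.23% of genes. All 3, Fbxw17, Fbxo39 and Fbxo27, were lower in KYZY (4.79% of genes), and 0 were higher (2.43% of genes). Fbxo39 and Fbxo27 were under 1 CPM in every library, and Fbxo27 was at 0 in KYZY 2, KYZY 3 and stress 3.

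Fbxl20, known in neurons for acting on the synaptic protein RIM1, had 117, 96.9 and 90.9 CPM in KYZY libraries, against 182, 146 and 114 CPM in control libraries. KYZY 1 was just above control 3, so the groups overlapped by 1 library. The log2 fold change was -0.53 (SE 0.237), with an unadjusted p of 0.0474 and an adjusted p of 0.996 in edgeR. Fbxw8 had 1.23, 2.17 and 1.06 CPM in KYZY libraries, against the control values given above, a log2 fold change of -0.88 (SE 0.403) with an adjusted p of 0.996 in edgeR. Fbxw8 was thus lower in 2 of 3 KYZY libraries than in every control library. Fbxl18, Fbxl14 and Fbxo7 had log2 fold changes of -0.80, -0.51 and -0.56.

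Fbxo32 (atrogin-1), known for protein loss in wasting muscle, had the largest span of any member above 0 in all libraries. It had 0.268, 6.81 and 2.33 CPM in KYZY libraries, against 0.515, 0.349 and 2.25 CPM in stress libraries and 0.0827, 0.363 and 1.05 CPM in control libraries. The 4 highest libraries were KYZY 2, KYZY 3, stress 3 and control 3, which were also the 4 with the highest cumulus marker level. In KYZY against control the log2 fold change was 2.64 (SE 1.29), with an adjusted p of 0.996 in edgeR, and 0.28 without those 4 libraries. Fbxo6, a glycoprotein-binding relative of Fbxo2, had 0.190, 0.675 and 0.694 CPM in KYZY libraries, 0, 0.262 and 0.124 CPM in stress libraries, and 0, 0 and 0.208 CPM in control libraries. The markers' part in these genes was not tested.

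For the cluster, 8 genes had a higher and 5 a lower fitted level in KYZY than in control, with a median log2 fold change of 0.07. It was -0.05 under limma voom with library weights, and -0.29 to 0.61 when single libraries were left out. Fbxw28 averaged 4743 ± 1290 CPM in KYZY and 4497 ± 2154 CPM in control (SD, n = 3 each), a log2 fold change of 0.08 (SE 0.476).

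**Figure D5:**
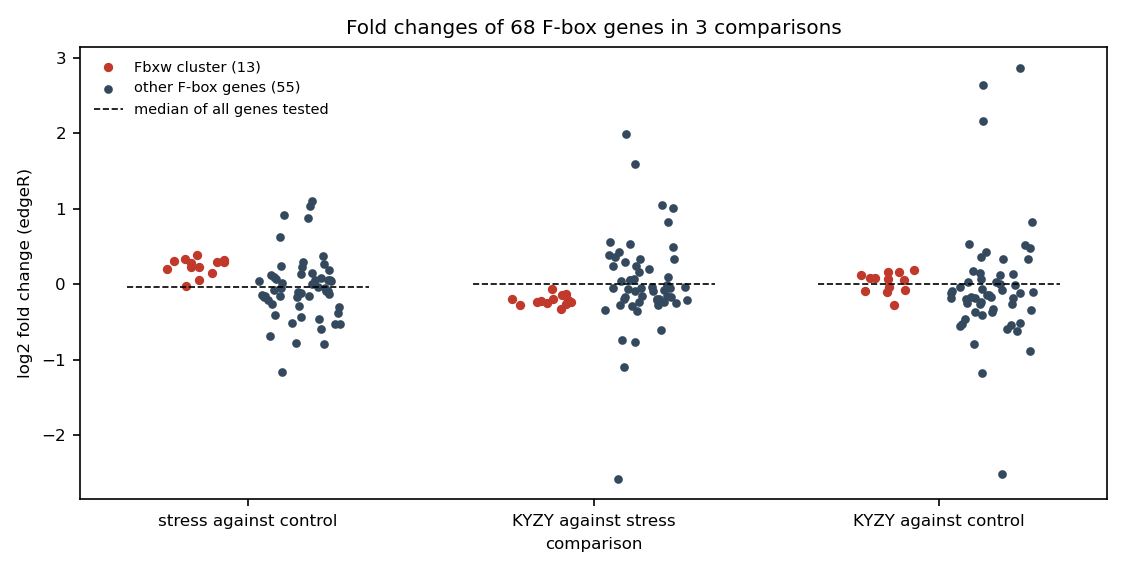
Log2 fold changes of the 68 members tested in stress against control, KYZY against stress and KYZY against control, with the 13 cluster genes in red, the 55 other members in dark blue and the median of all genes tested as a dashed line. The members spread around the median of all genes, and 0 passed an adjusted p of 0.05.

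The partners of F-box proteins were described through lists of genes, of which 0 passed at an adjusted p of 0.05 in any of the comparisons. Among 6 F-box proteins with other names that were tested, Kdm2b, a histone demethylase, averaged 391 CPM over the libraries and Btrc, the other beta-TrCP, averaged 53.5 CPM. The fitted level was higher for 0 of the 6 in KYZY against stress (median log2 fold change -0.32), for 1 in KYZY against control (-0.40) and for 3 in stress against control (-0.07). The medians of all genes in these comparisons were 0.01, -0.0032 and -0.03. Ccnf, the founding F-box protein cyclin F, had 36.9, 24.0 and 31.3 CPM in KYZY libraries, against 40.0, 44.6 and 42.3 CPM in stress libraries and 82.3, 66.7 and 36.9 CPM in control libraries. Its log2 fold change in KYZY against control was -1.01 (SE 0.287), with an unadjusted p of 0.00523 and an adjusted p of 0.996 in edgeR. Lrrc29 was under 1 CPM in all 9 libraries, and its log2 fold change in KYZY against control was -2.87 (SE 1.44).

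The 13 genes of the ligase core and its ubiquitin-conjugating enzymes spanned a wide range. The conjugating enzyme Ube2d3 averaged 2163 CPM and the adaptor Skp1a 1299 CPM over the libraries, and the lowest was the scaffold Cul7 at 1.37 CPM. The fitted level was higher for 11 of 13 in KYZY against stress (median log2 fold change 0.17), for 10 in KYZY against control (0.17) and for 7 in stress against control (0.02). Cdc34, the enzyme that extends ubiquitin chains on SCF targets, averaged 44.1 ± 12.8 CPM in stress and 81.9 ± 29.7 CPM in control (SD, n = 3 each). Its adjusted p was 1.00 in edgeR.

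SCF ligases are switched on by attaching Nedd8 to the cullin and switched off by the COP9 signalosome. Of 13 genes for neddylation and exchange, 8 had a higher fitted level in KYZY against stress (median log2 fold change 0.04), 7 in KYZY against control (0.09) and 6 in stress against control (-0.15). Dcun1d1 and Nae1 led them with means of 325 and 152 CPM. Glmn, an inhibitor that binds Rbx1, averaged 7.15 ± 1.58 CPM in stress and 14.4 ± 6.13 CPM in control (SD, n = 3 each). Its groups did not overlap, and its log2 fold change was -1.01 (SE 0.328) with an adjusted p of 1.00 in edgeR. Dcun1d5 had 28.1, 138 and 143 CPM in KYZY libraries, against 20.8, 19.8 and 44.4 CPM in stress libraries and 16.7, 25.3 and 115 CPM in control libraries. Its 4 highest libraries were the 4 of highest cumulus marker level, whose part was not tested, and its log2 fold change in KYZY against stress was 1.87 (SE 0.895). Of 10 signalosome subunits, 4 had a higher fitted level in each of the 3 comparisons, with medians of -0.10 in KYZY against stress, -0.17 in KYZY against control and -0.06 in stress against control. Cops8 and Cops7a led with 552 and 96.7 CPM, and Cops6 had 3.77, 7.37 and 9.73 CPM in KYZY libraries, against 3.83, 3.91 and 4.14 CPM in stress libraries, so that KYZY 1 lay at the stress level.

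Among 20 known substrates and cofactors, Cks1b and Cks2, of which Cks1b helps Skp2 bind its target, averaged 726 and 619.9 CPM over the libraries. Of the 20, 12 had a higher fitted level in KYZY against stress (median log2 fold change 0.07), 12 in KYZY against control (0.07) and 10 in stress against control (0.03). Nfe2l1, a transcription factor of proteasome genes, averaged 42.5 ± 1.44 CPM in stress and 61.8 ± 4.40 CPM in control (SD, n = 3 each). Its groups did not overlap, and its log2 fold change was -0.54 (SE 0.183), with an unadjusted p of 0.0140 and an adjusted p of 1.00 in edgeR. Ccne2, a cyclin E gene, averaged 18.9 ± 3.46 CPM in KYZY, 25.6 ± 3.59 CPM in stress and 25.9 ± 5.19 CPM in control (SD, n = 3 each). Mcl1, a survival protein that Fbxw7 acts on, had 0.347, 3.19 and 1.04 CPM in KYZY libraries, against 0.0491, 0.192 and 1.12 CPM in stress libraries and 0.198, 0.277 and 0.521 CPM in control libraries. Its 4 highest libraries were again those of highest cumulus marker level.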

How the data were processed

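RNA of 9 oocyte libraries was measured by SMART-Seq v4 cDNA cut with Tn5, without molecular identifiers or strand. The unit is not named in the tables. From the values, the tables deposited by the authors were taken to hold expected counts per gene, not normalized. Per the submitters' processing notes, tools were HISAT2, StringTie, DESeq2, Trim Galore and bcl2fastq 2.20 on GRCm38 and mm10, with no roles given. In control 1, 401 genes had a value of 4, against 53 at 3 and 224 at 5, so that 1 read pair appeared to be worth about 4 units. The floor of 12 counts stands for 3 such pairs. It covers counting error only.

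Counts were fitted as deposited in edgeR 4.0.16 (R 4.3.3) with TMM scaling, filterByExpr (minimum count 10, minimum total 15) and robust quasi-likelihood F tests. All 9 libraries entered, with 1 mean per group, 6 residual degrees of freedom and 2-sided tests. P-values were adjusted by Benjamini-Hochberg over 13890 genes (10846 dropped), and the common biological coefficient of variation was 0.611. Each library is 1 mouse per the labels. Alternatives used DESeq2 1.42.0 and limma 3.58.1 (voom), other filters, counts divided by 4, fits of 2 groups, a replicate block and left-out libraries. The statistics were checked on simulated data, for stress against control, KYZY against stress and KYZY against control in that order. Changed genes were drawn only from those averaging above 1 CPM, so the rates do not cover lower genes. At the adjusted p threshold the edgeR fit recovered 9%, 6% and 3% of 2-fold changes. It recovered 49.3%, 61.2% and 52.2% of 4-fold changes and 84.8%, 87.9% and 83.3% of 8-fold changes. False calls were 3, 4 and 3 of 13690 unchanged genes. Replicate numbers come from the sample titles. Deviations from the group mean correlated between same-numbered stress and control libraries at 0.165, 0.376 and 0.345. An alternative treated those numbers as paired. Correlations of unlike-numbered libraries are not given, so these values cannot show whether the numbers pair libraries. For KYZY they were 0.344, -0.196 and 0.102 with stress and 0.558, -0.099 and 0.643 with control. With control, KYZY 1 and 3 exceeded every value between stress and control, while KYZY 2 did not. Whether the numbers pair libraries of any groups is therefore undecided. The block was run on all 9 libraries and on the stress and control libraries alone.

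Lengths and coding sequences came from GENCODE M21, and coordinates and promoters from RefSeq GRCm38.p6, where all 77 members matched (1 by an older symbol). The members and lists were chosen with earlier results of these data known. Named with values were the 12 highest members per kilobase, the cluster, the 6 members of smallest p per comparison, any member past the threshold in an alternative, 14 members of well-known role, and from each partner list the 2 genes of highest mean and those of smallest p. Other genes named for not overlapping, for low values or for their span were chosen after their values were seen. Of the members this rule names, 1 is not reported here.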

Additional observations from a re-analysis of the deposited data

How the results depend on the processing

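With 3 libraries a group, a p that misses the threshold does not show that levels did not differ. The number of members called stayed at 0 in every comparison under all alternatives but one: without the 4 libraries of highest cumulus marker level, chosen after the data were seen, 1 member (Fbxo3) was called in stress against control and 1 in KYZY against stress. The number of all genes called, 0 at first, was 148, 115 and 119 in that fit for stress against control, KYZY against stress and KYZY against control. In that fit KYZY 1 was the only KYZY library, and 2 residual degrees of freedom remained. Its calls in the KYZY comparisons, of members and of all genes, therefore cannot be read as differences between groups. With DESeq2 the number of all genes called was 22, 13 and 1. In KYZY against stress it was 1 both with only those groups fitted and with limma voom. Leaving out single libraries gave 0 to 2, 0 to 1 and 0 to 3 genes, the highest each time without control 3. The cause of these differences was not tested.

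With the replicate number as a block on all libraries, 0 genes were called in each comparison and the family's median log2 fold change was -0.01, -0.10 and -0.08. With the block on control and stress libraries alone, 1 gene was called, which was no member. The block changed no other call.

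The family's median log2 fold change moved for stress against control to -0.14 with voom and -0.20 without the 4 libraries, and over -0.22 to 0.019 when single libraries were left out. For KYZY against stress it was 0.011 with voom, 0.19 without the 4 libraries and -0.22 to 0.012 over single libraries. For KYZY against control it was 0.072 without the 4 libraries and -0.25 to 0.036 over single libraries. The cluster's median in KYZY against stress was 0.96 without the 4 libraries. In every KYZY value from that fit, KYZY 1 is the only KYZY library. The highest-to-lowest ratio of the cluster's sum was 2.58 by library totals. Fbxl15 turned to -0.61 in KYZY against stress without the 4 libraries. Of the other values, 362 for single members and for the cluster and 133 for group results kept their direction and call or moved within the spread.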
